A study of Mus musculus with 4 samples.

Results

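The genes described here encode the core of the NCOR corepressor (Ncor1, Hdac3, Tbl1x, Tbl1xr1 and Gps2), the scaffolds of the SIN3 and BCOR corepressors (Sin3a and Bcor), and the class-I histone deacetylases Hdac1 and Hdac2. They were taken by symbol from a gene count table of chromatin-associated RNA, and all 9 were found among its 36918 genes. Chromatin-associated RNA-seq (ChAR-seq) extracts RNA from the chromatin pellet left after the cytoplasm and nucleoplasm are washed away, so that most of what is read is RNA still being made, introns included. The libraries came from mouse embryonic stem cells (mESCs) in which both copies of ZBTB21, a BTB zinc finger transcription factor, carried an mAID-GFP degron tag, and in which OsTIR1, the plant receptor that sends AID-tagged proteins to the proteasome, had been placed at Rosa26. The ZBTB21_degron cells were given 1 μg/ml doxycycline for 24 h to induce OsTIR1 and then 500 μM indole acetic acid (IAA) for 6 h, and the untreated cells are described only as untreated. Both groups carry the tag and OsTIR1 and come from clonal lines, and whether the untreated cells received doxycycline is not stated, so loss of ZBTB21 cannot be told apart from an effect of the added compounds. Each group has 2 libraries, and nothing says that they came from separate cultures, so every p-value measures only the spread between these libraries, which may be technical.

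Corepressors do not bind DNA by themselves. BTB zinc finger factors such as BCL6 and ZBTB16 recruit NCOR, SIN3 and BCOR through their BTB domains, and these complexes bring deacetylases that remove acetyl groups from histone tails. NCOR carries HDAC3, whose activity depends on the deacetylase activating domain of its scaffold, whereas SIN3, NuRD and CoREST carry HDAC1 and HDAC2. BCOR instead joins a variant Polycomb complex, PRC1.1, that ubiquitylates histone H2A. The comparison below asks whether chromatin-associated RNA of the genes for this machinery differed after ZBTB21 degradation.

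The libraries held 6479842 and 4931027 gene counts in ZBTB21_degron cells, against 4761133 and 4262382 in untreated cells. Of 14361 genes tested with edgeR, 2921 were higher and 2845 lower at an adjusted p of 0.05, and the median log2 fold change was -0.00075, so each change is relative to the typical gene, and a shift shared by every gene would not be seen. Longer genes were lower: the rank correlation of log2 fold change with gene length, given as a description over genes that share the same 4 libraries, was -0.469. The summed CPM (each library's counts scaled to a common total) of 8 mESC marker genes were 2720 and 2682 in ZBTB21_degron cells and 2125 and 2142 in untreated cells. Pou5f1, Nanog, Klf4, Esrrb, Zfp42 and Tfcp2l1 were all read in every library, Sox2 had no count and Dppa5a almost none. Sox2 lies wholly under another gene on the same strand, so its lack of counts does not show that it was silent. Of 18 markers of other cells 4 had no count in any library. Among these, Sox1 and Tubb3 also lie wholly under other genes on the same strand, so their lack of counts does not show absence. The fibroblast, endoderm, neural and mesoderm sums ranged between 0.763 and 18.6 CPM in ZBTB21_degron cells and between 1.49 and 27.2 CPM in untreated cells, and the part of these marker differences in the results was not tested. In bulk RNA, fewer cells of a type and less RNA per cell cannot be told apart. Zbtb21 itself had 0 and 0 counts in ZBTB21_degron cells and 2 and 0 in untreated cells, but 99.9% of its gene body lies under another gene on the same strand, and the degron acts on the protein, so its counts check nothing.

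All 9 genes passed the filter on low counts. Under the scaling that treats all gene lengths alike, Hdac1 and Gps2 rose in ZBTB21_degron cells, and Tbl1x and Tbl1xr1 fell. The other 5 did not pass the test. Over all tested genes, 20.3% were called higher and 19.8% lower, so a split of 2 higher and 2 lower among 9 lies near that background. The median log2 fold change of the 9 genes was -0.04, close to that of all genes. The groups did not overlap for 6 of the 9, with 3 higher (Hdac1, Gps2 and Hdac3) and 3 lower (Ncor1, Tbl1x and Tbl1xr1) in ZBTB21_degron cells, where 34.4% of all tested genes lay wholly higher and 34.6% wholly lower.

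**Figure D1:**
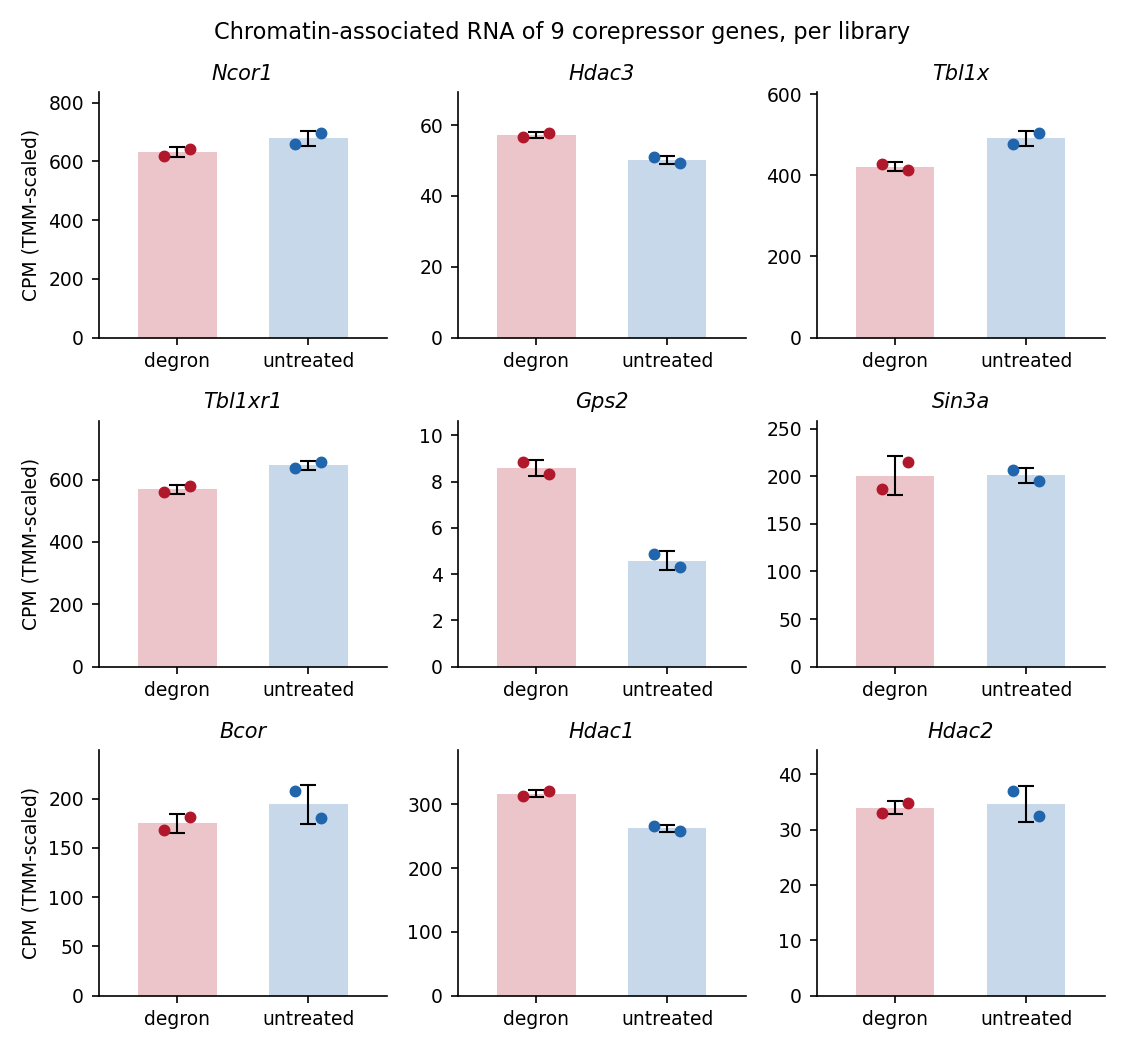
CPM (scaled by TMM, the trimmed mean of M values) of each of the 9 genes in the 2 ZBTB21_degron libraries (red) and the 2 untreated libraries (blue); bars are means, whiskers are SD, and every axis starts at 0. The groups lie apart for Ncor1, Hdac3, Tbl1x, Tbl1xr1, Gps2 and Hdac1 and overlap for Sin3a, Bcor and Hdac2.

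Ncor1 (ENSMUSG00000018501, chr11:62316426-62458541, minus strand, mm10) encodes the scaffold that ties nuclear receptors and BTB factors to HDAC3. It had 619.5 and 642.8 CPM in ZBTB21_degron cells, against 660.1 and 696.9 CPM in untreated cells. Both ZBTB21_degron libraries were lower, but the log2 fold change of -0.10 ± 0.04 (SE) had an edgeR adjusted p of 0.0588 and was not called. Leaving out untreated replicate 1 brought the value to -0.14 with an adjusted p of 0.0427, past the threshold, whereas without untreated replicate 2 it was -0.06 (adjusted p = 0.464) and without ZBTB21_degron replicate 1 -0.07 (adjusted p = 0.345). When each library was scaled along gene length, the direction of Ncor1 turned, to 0.18 (adjusted p = 0.00169). Genes on the opposite strand cover 8.73% of Ncor1, and it is not stated whether the counting used strand.

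Hdac3 (ENSMUSG00000024454, chr18:37935844-37955016, minus strand) is the catalytic subunit of NCOR. Its chromatin-associated RNA stood at 56.6 and 57.8 CPM in ZBTB21_degron cells and at 51.0 and 49.3 CPM in untreated cells. The groups did not overlap, and the log2 fold change of 0.19 ± 0.10 did not pass the test (edgeR adjusted p = 0.124). The log2 ratio of Ncor1 over Hdac3 was 3.44 and 3.46 in ZBTB21_degron cells, against 3.68 and 3.81 in untreated cells, a difference of -0.29. An exact two-sided permutation test of this ratio gave p = 0.333, the smallest that 2 libraries against 2 can give. The pair joins a gene of 142 kb and a gene of 19.2 kb, and with the length-adjusted scaling both were positive, Ncor1 at 0.18 and Hdac3 at 0.09, so the direction of this difference does not hold there.

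Tbl1x and Tbl1xr1 encode closely related WD40 proteins of NCOR that bind histone tails and help exchange corepressors for coactivators. Tbl1x (ENSMUSG00000025246, chrX:77511013-77662983, plus strand) read 428.8 and 413.2 CPM in ZBTB21_degron cells, and 477.9 and 504.4 CPM in untreated cells. Tbl1xr1 (ENSMUSG00000027630, chr3:22076652-22216594, plus strand) read 559.2 and 579.4 CPM in ZBTB21_degron cells, and 635.4 and 656.4 CPM in untreated cells. For both genes every ZBTB21_degron library lay under every untreated library. Tbl1x fell by 0.22 ± 0.05 on the log2 scale (edgeR adjusted p = 0.000289), a direction that turned to 0.08 ± 0.05 (adjusted p = 0.239) when each library was scaled along gene length. Tbl1xr1 fell by 0.18 ± 0.04 (edgeR adjusted p = 0.00107), and with that scaling it too turned, to 0.10 ± 0.05 (adjusted p = 0.0932). The ratio between the paralogs stayed close, with a log2 ratio of Tbl1x over Tbl1xr1 of -0.38 and -0.49 in ZBTB21_degron cells and of -0.41 and -0.38 in untreated cells (exact permutation p = 0.667).

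Gps2 (ENSMUSG00000023170, chr11:69913888-69916591, plus strand) encodes a small NCOR subunit that also restrains ubiquitin-dependent signalling in the cytoplasm. Its counts were 58 and 41 in ZBTB21_degron cells and 23 and 18 in untreated cells, the lowest of the 9 genes, which comes to 8.85 and 8.34 CPM against 4.88 and 4.29 CPM. Both ZBTB21_degron libraries were well above both untreated ones, and the log2 fold change of 0.90 ± 0.27 (edgeR adjusted p = 0.00579) lay at percentile 98.6 of all tested genes. It is also the member with the widest error, and the call is lost without untreated replicate 2, at 0.83 with an adjusted p of 0.0506. With the length-adjusted scaling Gps2 gave 0.68 ± 0.27 and an adjusted p of 0.0514, just outside the threshold. DESeq2 gave Gps2 a log2 fold change of 0.91 and no adjusted p.

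Sin3a (ENSMUSG00000042557, chr9:57072040-57128366, plus strand) encodes the scaffold on which HDAC1 and HDAC2 sit in the SIN3 complex. It had 186.2 and 215.0 CPM in ZBTB21_degron cells, on either side of the 206.2 and 195.4 CPM of untreated cells. The groups overlapped, and the log2 fold change was -0.01 ± 0.06 (edgeR adjusted p = 0.923). Since 2700012I20Rik and Man2c1os cover 51.9% of Sin3a from the opposite strand, part of its counts may belong to them. Bcor (ENSMUSG00000040363, chrX:12036740-12160355, minus strand), which encodes a corepressor of BCL6, had 168.2 and 181.5 CPM in ZBTB21_degron cells, against 207.9 and 180.4 CPM in untreated cells. The groups overlapped narrowly, and the log2 fold change of -0.16 ± 0.07 missed the threshold (edgeR adjusted p = 0.0533). Leaving out ZBTB21_degron replicate 2 or untreated replicate 2 moved Bcor past it, to -0.21 (adjusted p = 0.0291) and -0.25 (adjusted p = 0.00651), whereas leaving out ZBTB21_degron replicate 1 or untreated replicate 1 brought it to -0.09 (adjusted p = 0.397) and -0.04 (adjusted p = 0.749). With the length-adjusted scaling Bcor turned to 0.10 (adjusted p = 0.244).

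Hdac1 and Hdac2 encode deacetylases that pair with each other and serve several complexes. Hdac1 (ENSMUSG00000028800, chr4:129516104-129542713, minus strand) gave 312.5 and 321.0 CPM in ZBTB21_degron cells, and 266.1 and 258.3 CPM in untreated cells. The groups lay far apart for their spread, and Hdac1 rose by 0.27 ± 0.05 on the log2 scale, or 20.7% (edgeR adjusted p = 8.1e-05). This call was kept in all 14 alternative settings tried, at 0.24 to 0.31. Hdac2 (ENSMUSG00000019777, chr10:36974544-37001889, plus strand) had 33.1 and 34.8 CPM in ZBTB21_degron cells and 37.0 and 32.4 CPM in untreated cells. These overlap, and the log2 fold change was -0.04 ± 0.12 (edgeR adjusted p = 0.825). The log2 ratio of Hdac1 over Hdac2 was 3.22 and 3.19 in ZBTB21_degron cells, against 2.83 and 2.98 in untreated cells, a difference of 0.30 that again met only the smallest exact permutation p available (0.333).

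Because a gene's change went with its length, the same fit was run with a smooth curve of each library on gene length as the scaling. Among 6238 tested genes under 20 kb, where Hdac3 and Gps2 belong, the median log2 fold change was 0.20, with 29.5% called higher and 3.98% lower. The 6018 genes of 20 to 100 kb, which include Sin3a, Hdac1 and Hdac2, had a median of -0.07, with 16.8% higher and 22.3% lower. Among 2095 genes over 100 kb, where Ncor1, Tbl1x, Tbl1xr1 and Bcor belong, the median was -0.34, with 3.39% higher and 59.8% lower. The 4 long members, at -0.10 to -0.22, therefore lay above the median of genes of their length class. That class has no upper bound and these members span 124 to 152 kb, so its median includes much longer genes.

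**Figure D2:**
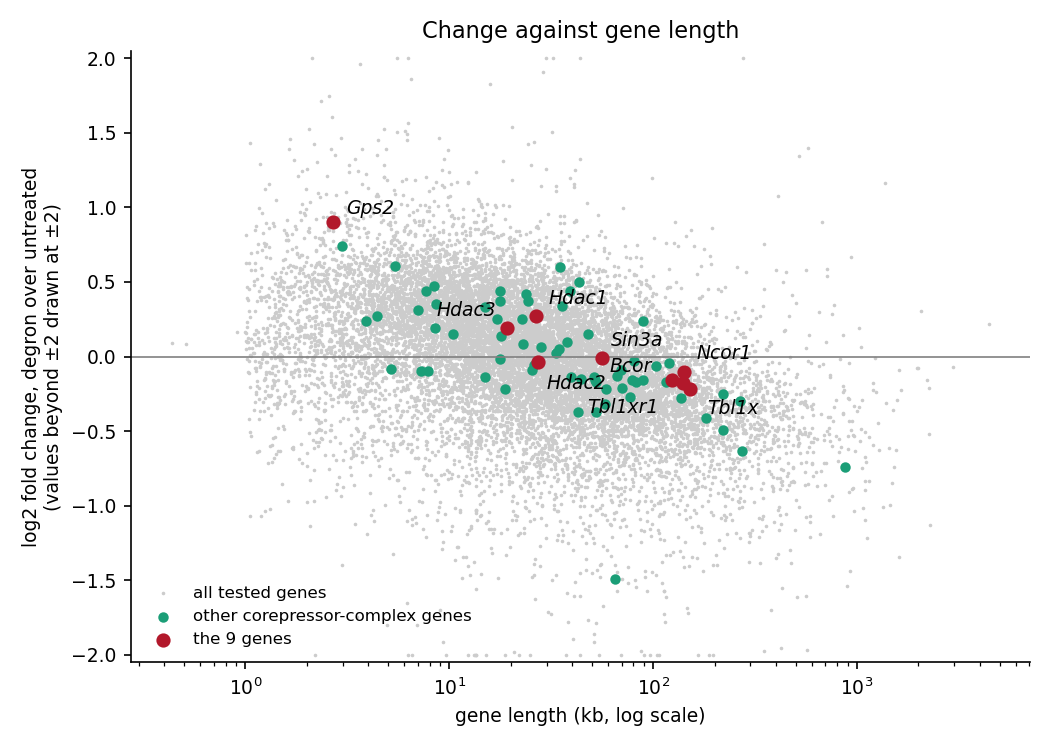
Log2 fold change (ZBTB21_degron over untreated) against gene length in kb on a log axis for all tested genes (grey), the 65 other tested corepressor-complex genes (green) and the 9 genes (red, named). Gps2, the shortest of the 9 at 2.7 kb, lies highest at 0.90, and Ncor1, Tbl1x, Tbl1xr1 and Bcor, at 124 to 152 kb, lie between -0.22 and -0.10 before any adjustment for length.

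With the length-adjusted scaling, 8 of the 9 genes had a positive log2 fold change and their median was 0.10. Of all 14351 genes in that fit, 7149 were positive, with a median of -0.00094. Of the 65 other corepressor-complex genes, 37 were positive, with a median of 0.024. Among the 9, Ncor1, at 0.18 ± 0.05 (edgeR adjusted p = 0.00169), and Hdac1, at 0.24 ± 0.05 (adjusted p = 0.000538), were called higher. None of the 9 was called lower, beside 16.2% higher and 11.8% lower of all genes. Ncor1 thus changed sign between the 2 scalings, and so did Tbl1x, Tbl1xr1, Sin3a and Bcor. Hdac1, Hdac3 and Gps2 were positive, and Hdac2 negative, under both. DESeq2, without a length term, called Hdac1 higher (adjusted p = 0.00168) and Tbl1x (0.00406) and Tbl1xr1 (0.00918) lower, beside 14.7% higher and 13.9% lower of the genes it gave an adjusted p. The cause of the relation with gene length was not tested.

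**Figure D3:**
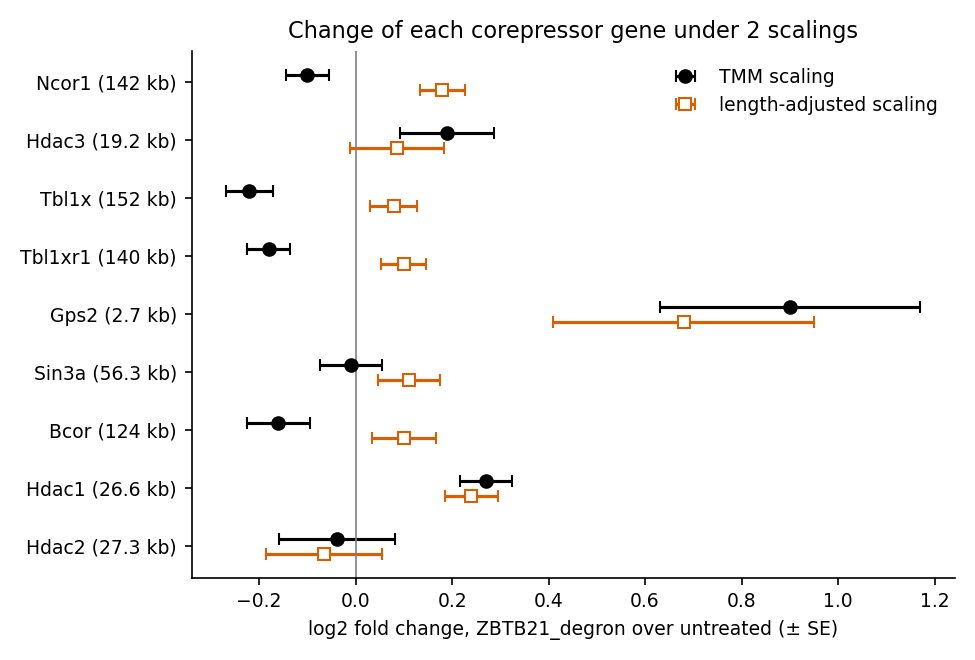
Log2 fold change ± SE (ZBTB21_degron over untreated) of the 9 genes under TMM scaling (filled circles) and length-adjusted scaling (open squares), with gene length beside each name. Hdac1 is positive under both (0.27 and 0.24), whereas Tbl1x (-0.22 and 0.08), Tbl1xr1 (-0.18 and 0.10) and Ncor1 (-0.10 and 0.18) change sign.

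Per kb of counted gene body, Hdac1 was the most abundant of the 9 genes, with 11.9 and 12.2 CPM per kb in ZBTB21_degron cells and 10.1 and 9.82 CPM per kb in untreated cells. Averaged over all libraries it stood at percentile 95.6 of tested protein-coding genes. Hdac2 was the least abundant, with 1.22 and 1.29 CPM per kb in ZBTB21_degron cells and 1.37 and 1.2 CPM per kb in untreated cells, at percentile 46.4. Per kb, Hdac1 thus exceeded Hdac2 by 9.70 and 9.49 times in ZBTB21_degron cells and by 7.40 and 8.19 times in untreated cells. Bcor, at 1.42 ± 0.08 CPM per kb in ZBTB21_degron cells and 1.57 ± 0.16 in untreated cells (SD, n = 2 each), lay just above Hdac2 in both groups.

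Ncor1 and Tbl1xr1 came next below Hdac1 in both groups. Ncor1 had 4.45 ± 0.12 CPM per kb in ZBTB21_degron cells and 4.78 ± 0.18 in untreated cells. Tbl1xr1 had 4.08 ± 0.10 in ZBTB21_degron cells and 4.63 ± 0.11 in untreated cells (SD, n = 2 each), so that these neighbours overlapped in untreated cells and not in ZBTB21_degron cells. In untreated cells Sin3a (3.58 ± 0.14), Tbl1x (3.24 ± 0.12), Hdac3 (2.66 ± 0.06) and Gps2 (1.91 ± 0.18) followed in that order without overlap. In ZBTB21_degron cells Gps2 (3.58 ± 0.15) overlapped Sin3a (3.58 ± 0.36), ahead of Hdac3 (3.03 ± 0.04) and Tbl1x (2.78 ± 0.07). Tbl1x and Hdac3 thus stood in the reverse order in the 2 groups under TMM scaling, whereas their log2 fold changes were alike, 0.08 and 0.09, with the length-adjusted scaling. Exons make up only 4.64% to 21.1% of the annotated length of 8 members and 59.3% of Gps2, and exon and intron reads were not counted apart.

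**Figure D4:**
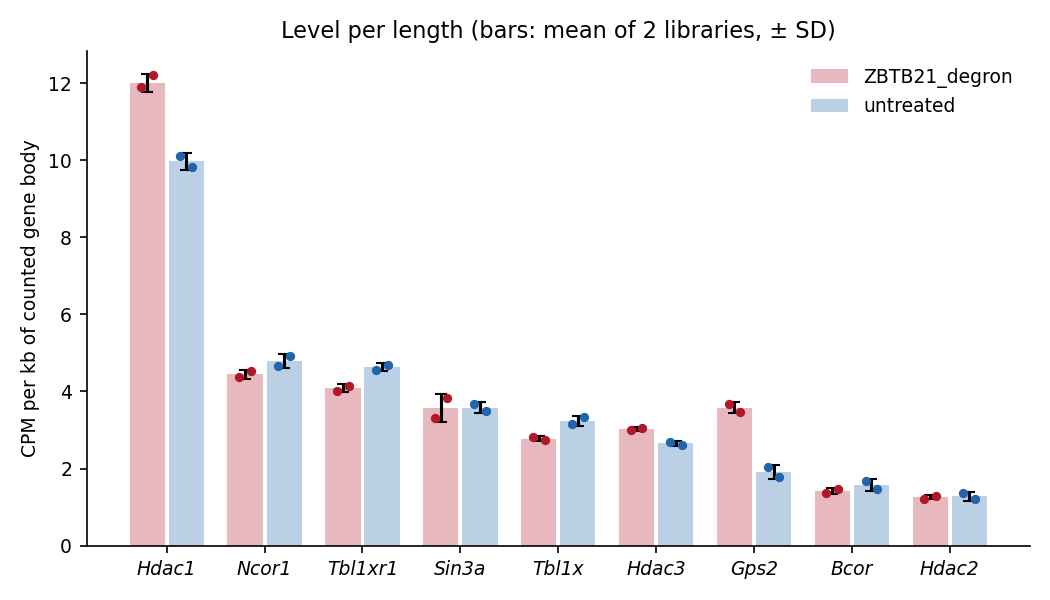
Level per length (CPM per kb of the gene body that was counted, which leaves out the first 300 bp) of the 9 genes, ordered by the untreated mean, in ZBTB21_degron (red, left) and untreated (blue, right) cells; bars are means of 2 libraries, whiskers SD and points libraries. Hdac1 is highest, and Gps2 stands at 3.58 in ZBTB21_degron and 1.91 in untreated cells.

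To show what surrounds the starts of these genes, the 150 bases upstream of the RefSeq start (GRCm38.p6) were read for the members with an entry, which gave 10 windows for 7 members. The windows printed here are those whose start is the same base in the GENCODE annotation. They set Tbl1xr1, which fell before length adjustment, beside Sin3a, Bcor and Hdac2, which did not pass the test. Capitals mark matches, on either strand, to a CCAAT box (CCAAT) or a GC box (GGGCGG). They lie at chr3:22076502-22076651 (plus strand), chr9:57071890-57072039 (plus), chrX:12160356-12160505 (minus) and chr10:36974394-36974543 (plus).
Tbl1xr1: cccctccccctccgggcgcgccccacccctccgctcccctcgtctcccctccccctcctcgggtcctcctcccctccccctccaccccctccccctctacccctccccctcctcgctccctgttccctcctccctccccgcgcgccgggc
Sin3a: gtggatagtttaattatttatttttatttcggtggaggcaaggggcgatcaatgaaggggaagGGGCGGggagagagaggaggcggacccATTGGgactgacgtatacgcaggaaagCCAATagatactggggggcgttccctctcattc
Bcor: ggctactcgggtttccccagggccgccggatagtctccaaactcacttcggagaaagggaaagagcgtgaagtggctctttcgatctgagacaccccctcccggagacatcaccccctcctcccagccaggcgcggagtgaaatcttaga
Hdac2: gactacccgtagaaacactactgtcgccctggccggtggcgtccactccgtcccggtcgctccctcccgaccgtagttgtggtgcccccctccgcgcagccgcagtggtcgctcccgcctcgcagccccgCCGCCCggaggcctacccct
Tbl1xr1 had the highest GC content of the 10 windows, 79.3%, with 11 CpG dinucleotides, against a median of 54% and 4 over all 32851 RefSeq windows of this length. Hdac2 reached 72.7% GC with 18 CpG, Bcor 59.3% with 9 and Sin3a 51.3% with 7. Tbl1xr1 and Bcor held no match, Sin3a held both motifs and Hdac2 a GC box. The CCAAT box occurs in 24.5% of all windows and the GC box in 28.6%.

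Searched in the same way were a TATA box (TATAAA, in 7.57% of all windows), an ETS site (CCGGAAG, 5.52%), a cAMP response element (TGACGTCA, 1.36%), an E-box (CACGTG, 4.3%) and a Kaiso site (TCCTGCNA, 2.48%). None of these motifs contains another. Gps2, called higher before length adjustment, held a CCAAT box and an ETS site at 58.7% GC. Tbl1x, which fell before length adjustment, held no match at 73.3% GC and 20 CpG. Of the Ncor1 windows, the more 5′ held a GC box and an ETS site at 70.0% GC, and the other held none at 29.3% GC. Both Ncor1 windows lie within the GENCODE gene, as does the Tbl1x window within its own, and most of the Gps2 window lies past the GENCODE start of Gps2. A match is a run of letters and not a bound site.

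The other subunits of these complexes give the setting in which the 9 genes were read. Of 67 further genes in 7 lists, 65 were tested, of which 16 rose, 19 fell and 30 did not pass the test, with a median log2 fold change of -0.05, where 20.3% of all tested genes were higher and 19.8% lower. With the length-adjusted scaling the counts were 12 higher and 9 lower, beside 16.2% and 11.8% of all genes, and with DESeq2 9 and 10, beside 14.7% and 13.9%. The shares of all genes are the background for the counts of each list below.

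Among 3 genes for NCOR partners, 1 rose and 1 fell. Kdm4a, a histone demethylase found with NCOR, had 245.8 and 257.1 CPM in ZBTB21_degron cells and 174.2 and 182.5 CPM in untreated cells (log2 fold change 0.50 ± 0.06, edgeR adjusted p = 7.93e-09). Coro2a, an actin-binding NCOR subunit, fell to 2.90 and 1.63 CPM in ZBTB21_degron cells, against 7.01 and 6.19 CPM in untreated cells (-1.49 ± 0.33, adjusted p = 0.000372). Its counts were only 19 and 8 in ZBTB21_degron cells and 33 and 26 in untreated cells, and DESeq2 gave Coro2a no adjusted p. Zbtb33, which encodes the BTB factor Kaiso that recruits NCOR, was not called (-0.10 ± 0.41).

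The ratios of Sin3a and Bcor to their paralogs were chosen after their values were seen. The log2 ratio of Sin3a over Sin3b was -0.19 and 0.03 in ZBTB21_degron cells and 0.54 and 0.51 in untreated cells, a difference of -0.60. The groups did not overlap, and the exact permutation p was 0.333. Bcor over Bcorl1, by contrast, was 1.59 and 1.59 in ZBTB21_degron cells, between the 1.78 and 1.44 of untreated cells (difference -0.02, exact permutation p = 1). Over the 5 pairs examined, the exact test can reach no p below 0.333, so none can pass an adjustment.

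**Figure D5:**
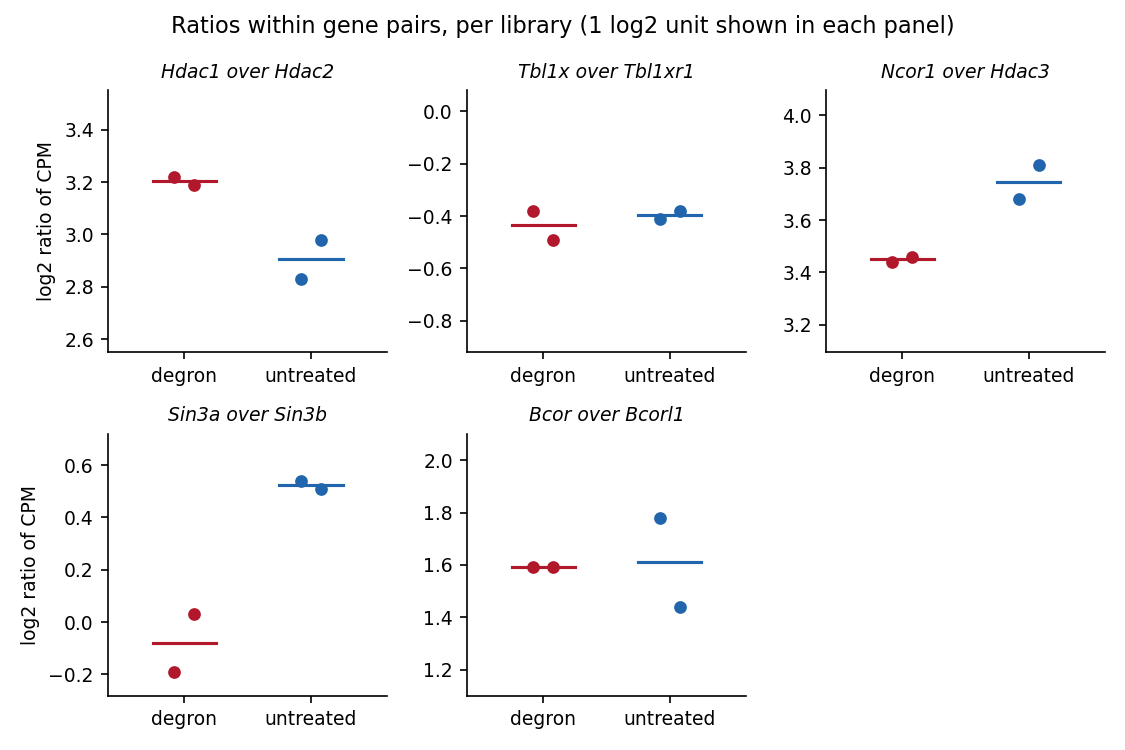
Log2 ratio of CPM within 5 gene pairs in each ZBTB21_degron (red) and untreated (blue) library; lines are means, and every panel spans 1 log2 unit. Hdac1 over Hdac2 lies higher in ZBTB21_degron cells (means 3.20 and 2.90), Sin3a over Sin3b lies lower, as does Ncor1 over Hdac3 before any adjustment for length, and Tbl1x over Tbl1xr1 and Bcor over Bcorl1 overlap.

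Among 18 tested SIN3 genes 5 rose and 3 fell, against 3 higher and 1 lower with the length-adjusted scaling. Sin3b, the paralog of Sin3a, had 213.2 and 210.8 CPM in ZBTB21_degron cells, against 142.1 and 137.5 CPM in untreated cells, and rose by 0.60 ± 0.06 (edgeR adjusted p = 3.23e-10). Suds3, a subunit that tethers HDAC1 to SIN3, rose by 0.37 ± 0.07, and Ing1, a reader of trimethylated H3K4, by 0.44 ± 0.13. Ing1, however, stood at 0.20 (adjusted p = 0.239) with the length-adjusted scaling. With DESeq2 Ing1 was not called (adjusted p = 0.0855), and the list's counts were 2 higher and 1 lower. Arid4b fell by 0.28 ± 0.07, but stood at -0.00 ± 0.06 with the length-adjusted scaling and was not called without untreated replicate 2 (-0.19, adjusted p = 0.0552). Without that library the list's counts were 3 higher and 0 lower, and without ZBTB21_degron replicate 1 only 1 was lower. Brms1 had no count and was not tested, 99.9% of it lying under another gene on the same strand.

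In the BCOR-PRC1.1 list 1 of 9 genes rose and 3 fell, against 3 higher and 3 lower with the length-adjusted scaling. These calls were not all of the same genes. With the length-adjusted scaling Kdm2b (0.21, edgeR adjusted p = 0.00844) and Usp7 (0.17, 0.00218) were called higher and Skp1 (-0.29, 0.0284) lower. None of them was called under TMM scaling. Rnf2, the ubiquitin ligase of Polycomb complexes, fell by 0.37 ± 0.08 (edgeR adjusted p = 0.000166). Rybp and Yaf2, related subunits that compete for the same place beside it, fell by 0.22 ± 0.05 and 0.37 ± 0.10. Pcgf1, which defines PRC1.1 and binds BCOR, rose by 0.74 ± 0.20 (adjusted p = 0.00278), but not past the threshold without untreated replicate 2 (0.50, adjusted p = 0.0915). Rybp lost its call with the length-adjusted scaling (-0.09, adjusted p = 0.168). With DESeq2, Pcgf1 (adjusted p = 0.0577) and Yaf2 (0.0563) were not called, and the list's counts were 0 higher and 2 lower.

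Hdac1 and Hdac2 also serve NuRD, CoREST and MiDAC. Of 10 NuRD genes 4 rose and 3 fell, against 3 higher and 0 lower with the length-adjusted scaling. Mta1, a scaffold that binds HDAC1, rose by 0.44 ± 0.06 (edgeR adjusted p = 2.65e-08), the small subunit gene Cdk2ap1 by 0.44 ± 0.10 and the bridging subunit gene Gatad2a by 0.24 ± 0.04, whereas Mbd2, which binds methylated CpG, fell by 0.32 ± 0.09. Mbd2 was not called without ZBTB21_degron replicate 2 (-0.23, adjusted p = 0.0763) or untreated replicate 2 (-0.24, adjusted p = 0.0674), and without either of these, or without untreated replicate 1, only 1 NuRD gene was called lower. With the length-adjusted scaling Mbd2 also lost its call (-0.20, adjusted p = 0.077) and Gatad2a stood at 0.44.

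Of 13 CoREST and MiDAC genes 2 rose and 5 fell, against 0 higher and 3 lower with the length-adjusted scaling. Of these 3, Rcor2 (-0.33, edgeR adjusted p = 0.000888) was not called under TMM scaling. Phf21a, the CoREST subunit that reads unmethylated H3K4, fell to 165.3 and 180.0 CPM in ZBTB21_degron cells, against 270.6 and 263.7 CPM in untreated cells (-0.63 ± 0.06, edgeR adjusted p = 1.76e-11), and stood at -0.25 with the length-adjusted scaling. Trerf1, a zinc finger gene of the MiDAC list, fell by 0.49 ± 0.05 and the CoREST scaffold Rcor1 by 0.27 ± 0.06, and Mier2 rose by 0.33 ± 0.08. The count of higher genes was 1 without ZBTB21_degron replicate 1 or untreated replicate 1, and that of lower genes was 3 without ZBTB21_degron replicate 1 and without either untreated library. Trerf1 stood at -0.13 (adjusted p = 0.0402) with the length-adjusted scaling. Rcor1 and Mier2 lost their calls under it (-0.09, adjusted p = 0.273, and 0.19, adjusted p = 0.0548).

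Among 8 other deacetylases 2 rose and 3 fell, against 1 higher and 1 lower with the length-adjusted scaling, and only 1 was higher without ZBTB21_degron replicate 2 or either untreated library. Hdac9, a class-IIa enzyme that docks on NCOR, fell by 0.74 ± 0.09 (edgeR adjusted p = 3.82e-09), with 57.7 and 66.5 CPM in ZBTB21_degron cells and 97.5 and 109.6 CPM in untreated cells, and stood at -0.22 (adjusted p = 0.0497) with the length-adjusted scaling. Hdac4 of the same class fell by 0.30 ± 0.05, but turned to 0.08 ± 0.05 with the length-adjusted scaling, and Hdac5 rose by 0.34 ± 0.08. Hdac8, the class-I enzyme outside these complexes, had 46.7 and 45.8 CPM in ZBTB21_degron cells and 58.0 and 52.2 CPM in untreated cells. Its fall of 0.25 ± 0.10 (adjusted p = 0.0404) turned to 0.10 with the length-adjusted scaling, and was not called without ZBTB21_degron replicate 1 (adjusted p = 0.12), ZBTB21_degron replicate 2 (0.135) or untreated replicate 1 (0.357). DESeq2 did not call Hdac8 either (adjusted p = 0.236). Of the class-I enzymes, Hdac1 thus rose, Hdac2 and Hdac3 were not called, and Hdac8 had a call that hung on single libraries, on scaling and on the test.

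In the list of BTB factors known to use these corepressors, 4 genes were tested. Zbtb33 is given above with the NCOR partners. Zbtb7a rose by 0.37 ± 0.07 (edgeR adjusted p = 8.84e-05), and Bcl6 (0.42 ± 0.21) and Zbtb7b (0.25 ± 0.13) were not called. Zbtb16 fell by 0.41 ± 0.16 (edgeR adjusted p = 0.0359), but stood at -0.09 with the length-adjusted scaling and was not called with DESeq2 (adjusted p = 0.246). It also lost the call without ZBTB21_degron replicate 1 (-0.23), untreated replicate 1 (-0.34) or untreated replicate 2 (-0.46).

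Among 73 tested genes (the 65 above and the remaining members), the gene whose pattern over the 4 libraries lay nearest each member was found by the root mean square difference of centred log2 CPM. Tbl1xr1 lay nearest Kdm1a, the demethylase of CoREST (0.0122 log2 units), and Ncor1 nearest Mier1 (0.02). Hdac3 lay nearest Phf12 (0.0227), Hdac1 nearest Gatad2a (0.0329) and Tbl1x nearest Arid4a (0.0356). Hdac2 and Bcor both lay nearest Rcor2 (0.0381 and 0.0434), and Sin3a nearest Chd4 (0.0489). Gps2 had the most distant neighbour, Sin3b (0.137). Each distance is smaller than the SE of that member's own log2 fold change, so the nearest genes are a description only.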

How the data were processed

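ChAR-seq was run on 4 libraries. Per the labels the authors trimmed reads with cutadapt 2.6 and counted with featureCounts 1.6.3; the labels list STAR 2.7.6a and the study names bowtie2 for mapping to mm10 and dm6, so the mapper is open. The deposited values are raw counts per gene of uniquely mapped reads without duplicates, from 300 bp after the start to the gene's end. Counting over gene bodies reads introns, and a gene that lies inside another on the same strand keeps almost no counts. The fly spike-in was not used here.

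Of 36918 IDs, 36770 matched GENCODE M21; 23551 had at least 1 count and 14361 passed filterByExpr (minimum count 10, total 15). Counts were scaled by TMM and compared with edgeR 4.0.16 (quasi-likelihood F test, two-sided, group as the term) with Benjamini-Hochberg adjustment over all tested genes at 0.05, in R 4.3.3. The SE comes from the log2 fold change and its F. The length-adjusted scaling fitted each library's log2 CPM against log10 gene length by loess with a span of 0.3, as an offset for 14351 genes. Alternatives used DESeq2 1.42.0 and limma 3.58.1. Pair ratios used CPM plus 0.5. The fit was tested on simulated data over genes of all count levels, where edgeR recovered 30.6% of 1.25-fold and 74% of 1.5-fold changes. DESeq2 recovered 16.3% of the 1.25-fold changes. A gene that was not called may thus still have changed by a small amount. Replicates of a group were not copies of each other: the chi-square of their counts, divided by its degrees of freedom, was 1.39 in ZBTB21_degron and 1.3 in untreated cells. Sampling of reads alone gives about 1, so these values do not show that the libraries came from separate cultures. Total counts of 4262382 to 6479842 leave Gps2 the least precise member. Named genes outside the 9 are up to 4 per list with the smallest adjusted p. Kdm2b, Usp7, Skp1 and Rcor2 were named in addition for their calls with the length-adjusted scaling. Members and lists were chosen with earlier results of these data known, and 1 gene of the lists is not reported here. Promoter windows come from RefSeq (GRCm38.p6), and the motifs are the fixed letter strings given above.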

Additional observations from a re-analysis of the deposited data

How the results depend on the processing

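Hdac1 kept its direction and call, and Hdac3 its direction and lack of one, in all 14 settings tried. All genes called numbered 1540 higher and 1456 lower with DESeq2, against 2921 and 2845, and 1698 lower with the length-adjusted scaling. Of the 9 genes, 1 was higher with a mean of at least 50 counts (where Gps2 was not tested) and with DESeq2. With the mean of at least 50 counts, and with protein-coding genes only, 4 were lower, as Ncor1 (adjusted p = 0.0126 and 0.0416) and Bcor (0.0132 and 0.0335) passed the threshold. Ncor1 passed also with limma voom (0.0353). With the length-adjusted scaling 0 were lower. Of the other 65 genes, 9 were higher and 10 lower with DESeq2, and 12 were lower with no filter and 9 with the length-adjusted scaling. Some values changed sign with the length-adjusted scaling, listed here for the members and the genes picked by adjusted p. These were Ncor1 (0.18), Tbl1x (0.079), Tbl1xr1 (0.10), Sin3a (0.11), Bcor (0.10), Hdac4 (0.08) and Hdac8 (0.10). Sin3a also turned with total counts (0.015), no filter (0.025) and with 1 library left out, where it ranged from -0.11 to 0.10. With 1 library left out Hdac2 ranged from -0.12 to 0.072 and Zbtb33 from -0.53 to 0.65, and Zbtb33 stood at 0.00015 with limma voom. The cause was not tested.

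With 1 library left out, the remaining library of that group is assumed to vary like the others. The 9 genes then gave 1 to 2 higher and 2 to 3 lower, the other genes 12 to 15 higher and 11 to 16 lower, and all genes 2304 to 2505 higher and 2083 to 2367 lower. The pair differences ranged from 0.23 to 0.37 for Hdac1 over Hdac2, -0.09 to 0.01 for Tbl1x over Tbl1xr1, -0.35 to -0.23 for Ncor1 over Hdac3, -0.72 to -0.49 for Sin3a over Sin3b and -0.20 to 0.15 for Bcor over Bcorl1.

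Same-numbered libraries shared only a number: their deviations correlated at 0.0239 over all tested genes and 0.0578 over genes with a mean of at least 50 counts. With the number as a replicate block, 4 of the 9 genes were lower, as Ncor1 (adjusted p = 0.0166) and Bcor (0.0161) passed the threshold. With the replicate block and the length-adjusted scaling together, 4 were higher (Ncor1, Hdac1, Gps2 at an adjusted p of 0.0429 and Tbl1xr1 at 0.0468) and 0 lower, and 10 of the other genes were lower. In that fit, among the members and the genes picked by adjusted p, Ncor1 (0.18), Tbl1x (0.08), Tbl1xr1 (0.10), Sin3a (0.11), Bcor (0.10), Arid4b (0.0022), Hdac4 (0.081) and Hdac8 (0.098) changed sign.

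Depth limits Gps2 and Coro2a, and the deepest members, Ncor1 and Tbl1xr1, have the smallest errors.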
